A study of Rattus norvegicus with 232 samples.

Results

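Expression of 10 genes of the brain endothelium and the blood-brain barrier was followed over the inbred rat strains of the Hybrid Rat Diversity Panel. The members were Cldn5, Cdh5, Pecam1, Flt1, Tek, Vwf, Slc2a1, Slco1a4, Abcb1a and Abcg2, chosen by symbol, and all 10 were found among the 20859 RefSeq genes of the table used. Each value is the authors' log2 expression value of a gene in a library of total RNA from brain tissue, made after ribosomal RNA was depleted with a strand-specific kit. The table held 214 libraries of 197 untreated animals from 74 strains, labelled male wherever a sex was given, and the labels give no age. It comprised 25 classic inbred strains with 66 animals and both recombinant inbred (RI) families, which are sets of inbred strains bred from a pair of progenitors. The HXB/BXH family (progenitors SHR/OlaIpcv and BN-Lx/Cub) had 30 strains with 88 animals. The FXLE/LEXF family (progenitors F344/Stm and LE/Stm) had 19 strains with 43 animals. Of the 74 strains, 54 had at least 3 animals, 15 had 2 animals and 5 had 1 animal.

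The blood-brain barrier is formed by the endothelial cells that line the brain's capillaries. Tight and adherens junctions seal these cells to each other, so that solutes must cross the cells themselves, by carriers that bring in nutrients or by pumps that return drugs and metabolites to the blood. Endothelial cells are a small share of the cells of the brain, and a library from the whole tissue measures them together with neurons, glia and the other cells of the vessel wall. Fewer cells of a type and less RNA per cell cannot be told apart in such libraries.

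Since counts are not part of the tables, the depth behind a value is unknown and its counting error cannot be stated. The library medians ran from 8.18 to 8.42. Libraries of 1 animal were averaged first, which concerned 3 animals. Of the 197 animals, 11 went against their labels by a check of expression, whose comparison with other strains could be made for the 192 animals of strains with at least 2. In 6 of them the strain-specific genes were nearest to another strain (FXLE12/Stm animals 2 and 3, FXLE17/Stm 3, FXLE18/Stm 2, LEXF2C/Stm 3 and SR/JrHsd 1). In 4 others the mean of 9 liver genes was at least 3 log2 units above the median animal (LE/Stm 2, BXH6/Cub 3, HXB10/Ipcv 1 and HXB20/Ipcv 3), and in HXB17/Ipcv 2 the Y-linked genes were at least 1 unit below both the median animal and the other animals of the strain. All 3 LEW/Crl animals also had low Y-linked means (9.35 to 9.46) but were like each other, so they were not counted. The animals stayed in the analysis, and counts of members that change without them are given both ways.

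Promoter windows from 250 bases before to 50 bases after the RefSeq start on the GRCr8 assembly were held for 6 of the 10 members. Slco1a4 and Abcg2 had a high positive correlation between animals, and Slc2a1 and Cldn5 correlated negatively with both of them, so these 4 windows are shown. Capitals mark GC boxes (GGGCGG or its reverse complement CCGCCC) and TATA boxes (TATAAA or TTTATA) found by a letter search on both strands.
Slco1a4, chr4:176495797-176496096, minus strand: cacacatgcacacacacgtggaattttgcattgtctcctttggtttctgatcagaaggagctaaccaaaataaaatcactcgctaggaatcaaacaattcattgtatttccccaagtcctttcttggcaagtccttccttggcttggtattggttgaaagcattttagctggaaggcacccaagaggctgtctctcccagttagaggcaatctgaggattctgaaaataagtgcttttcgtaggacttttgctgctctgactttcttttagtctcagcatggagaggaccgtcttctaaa
Abcg2, chr4:89075224-89075523, plus strand: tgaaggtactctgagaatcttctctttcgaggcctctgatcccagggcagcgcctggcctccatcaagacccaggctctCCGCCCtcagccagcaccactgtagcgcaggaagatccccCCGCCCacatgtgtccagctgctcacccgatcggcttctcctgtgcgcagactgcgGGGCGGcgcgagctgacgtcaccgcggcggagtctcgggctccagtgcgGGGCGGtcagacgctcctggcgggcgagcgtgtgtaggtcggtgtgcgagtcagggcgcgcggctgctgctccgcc
Slc2a1, chr5:138002272-138002571, plus strand: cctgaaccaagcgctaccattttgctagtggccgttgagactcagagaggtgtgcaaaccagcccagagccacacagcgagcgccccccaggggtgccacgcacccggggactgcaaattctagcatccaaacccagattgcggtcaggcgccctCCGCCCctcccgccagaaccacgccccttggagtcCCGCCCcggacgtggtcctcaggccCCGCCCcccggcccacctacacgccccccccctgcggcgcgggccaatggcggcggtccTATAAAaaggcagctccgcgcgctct
Cldn5, chr11:95718549-95718848, minus strand: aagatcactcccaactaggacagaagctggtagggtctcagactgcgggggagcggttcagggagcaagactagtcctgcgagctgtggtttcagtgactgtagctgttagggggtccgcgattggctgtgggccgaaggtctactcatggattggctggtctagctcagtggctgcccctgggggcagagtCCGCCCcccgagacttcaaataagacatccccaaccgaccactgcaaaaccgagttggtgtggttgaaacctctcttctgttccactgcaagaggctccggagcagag

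The Slco1a4 window had a GC content of 43.0% and no GC box, and stood at percentile 19.0 of the 33469 windows of the table by GC content. The Abcg2 window had 68.0% GC and 4 GC boxes, and the Slc2a1 window had 68.3% GC with 3 GC boxes and 1 TATA box. The Cldn5 window lay between them with 57.7% GC and 1 GC box. Of the members not printed, Flt1 had 72.7% GC with 3 GC boxes and 1 TATA box, and Abcb1a had 53.7% GC and 1 GC box. A GC box was present in 33.1% of all windows and a TATA box in 14.2%. These are matches of letters and were not tested as binding sites.

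As a measure of how much of a gene's variance lay between strains, the broad-sense R2 divides the sum of squares between strains by the total one. It was computed over the 192 animals of the 69 strains with at least 2 animals. At this design a gene with no strain effect has a mean R2 of 0.356, and the median over all genes was 0.434. The test was limma's moderated F-test, with p-values adjusted over all genes by Benjamini and Hochberg's method and a false discovery rate (FDR) of 5% as the threshold. By it 7 of the 10 members differed between strains, against 36.8% of all genes tested.

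Abcg2 had the highest R2 of the members. The gene encodes the breast cancer resistance protein, an efflux pump of the luminal membrane, and its value was 0.86 (adjusted p = 6.93e-29), at percentile 99.5 of all genes. The lowest strain mean was 7.84 in BUF/MnaMcwi, which had 1 animal. Among strains with more animals the lowest was HXB2/Ipcv, with 8.17 and 8.19. The highest was BXH6/Cub, with 9.27, 9.51 and 9.70, of which the last was the animal with raised liver genes. No animal of BXH6/Cub overlapped with the other 2 strains, nor did BUF/MnaMcwi and HXB2/Ipcv overlap. As the strains were picked for their lowest and highest means, this was largely set in advance. The range from the lowest to the highest strain mean was 1.65 log2 units, or 3.13-fold.

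Of the other efflux and uptake genes, only Abcb1a passed the test. Abcb1a encodes P-glycoprotein, the main drug efflux pump of the barrier, and had an R2 of 0.52 (adjusted p = 0.00334). Its strain mean was lowest in BXH10/Cub, with animals at 9.90, 10.17 and 10.21, and highest in HXB5/Ipcv, at 10.70, 10.72 and 10.73. Slc2a1 encodes GLUT1, the glucose carrier of the barrier. Its strain means ran from 10.96 in MWF/Hsd to 11.47 in FXLE15/Stm, with an R2 of 0.43 (adjusted p = 0.111). Slco1a4 encodes an organic anion transporter, and its strain means ran from 10.92 in HXB1/Ipcv to 11.69 in the single BUF/MnaMcwi animal. Its R2 of 0.40 (adjusted p = 0.227) was the lowest of the 10. Neither Slc2a1 nor Slco1a4 therefore passed. Abcb1a and Slco1a4 have close paralogues in the genome. How reads shared with those were assigned is not given for the table used, so that their values are less certain.

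The adhesion genes split. Pecam1, an adhesion protein of endothelial contacts also carried by platelets and leukocytes, had the second highest R2 of the members at 0.69 (adjusted p = 7.75e-10). Its strain mean was lowest in GK/FarMcwi, with animals at 9.72, 9.72 and 9.74, and highest in HXB20/Ipcv, at 10.18, 10.22 and 10.29. A narrow range of 0.51 log2 units was thus still wide beside the spread within strains. It was not wide beside the single repeat libraries of 1 animal. The 12 libraries of SHR/OlaIpcv animal 1 ran from 9.79 to 10.31, with an SD of 0.151 against 0.106 between strain means. The SD between animals of 1 strain was lower, at 0.0911, and whether libraries of other animals spread as widely as those 12 was not tested. Cdh5 encodes VE-cadherin, the cadherin of endothelial adherens junctions. It ranged from 9.01 in WAG/RijCrl to 9.60 in FXLE15/Stm, with an R2 of 0.50 (adjusted p = 0.00607). Cldn5 encodes the main claudin of the barrier's tight junctions and had an R2 of 0.44 (adjusted p = 0.0823). The strain of the highest mean was HXB2/Ipcv, with animals at 10.58 and 10.82, and that of the lowest was FXLE13/Stm, with a single animal at 9.63. Without the 11 animals that went against their labels Cldn5 passed the test (adjusted p = 0.0330), and 8 of the 10 members did, beside 8260 of all genes in place of 7677.

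The signalling receptors and Vwf all passed. Flt1 encodes VEGF receptor 1 and had an R2 of 0.57 (adjusted p = 7.44e-05), with strain means from 11.06 in LEXF5/Stm to 11.67 in F344/NCrl. Tek encodes TIE2, the receptor of the angiopoietins. Its R2 was 0.49 (adjusted p = 0.0163) and its strain means ran from 9.67 in FXLE13/Stm to 10.26 in HXB7/Ipcv. Vwf encodes von Willebrand factor, the clotting protein stored by endothelial cells. It had the second widest range of strain means, from 9.97 in HXB24/Ipcv (9.90, 9.98 and 10.04) to 11.05 in HXB15/Ipcv (10.75, 11.08 and 11.33), and an R2 of 0.54 (adjusted p = 0.000601).

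**Figure D1:**
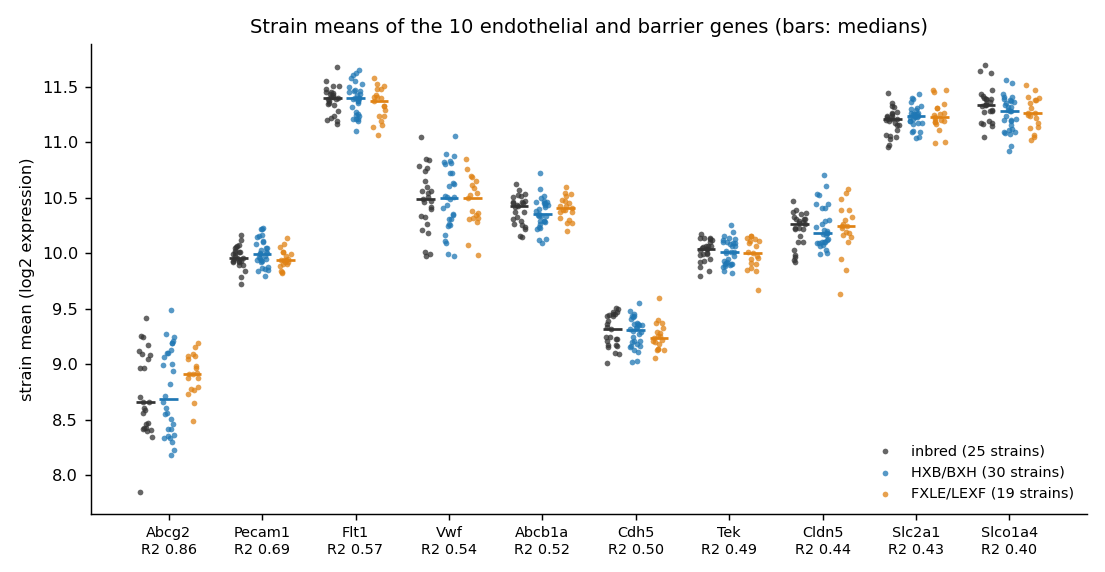
Strain means of the 10 members on the log2 expression scale, in order of R2 (written under each symbol), with 1 point per strain coloured by panel and a bar at each panel's median. Abcg2 spans 7.84 to 9.49, of which the FXLE/LEXF strains cover 8.49 to 9.19, and the panels overlap for every member.

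The number of members called moved when a replicate was left out. Without replicate 1 of each strain 3 members passed, namely Abcg2, Pecam1 and Vwf. Without replicate 2 the 3 were Abcg2, Pecam1 and Flt1, and without replicate 3 there were 8, with Cldn5 added to the 7. Of all 20859 genes 3275, 3116 and 6122 passed in these fits, against 7677 over all animals. Abcg2 passed under each of the 12 alternative settings run, and Pecam1 under each of the 11 in which it was measured.

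Other genes of the vessel wall and of the other cells in the tissue were described by lists of known markers, beside the 36.8% of all genes that passed the same test. A strain effect was called for 7 of 12 further junction genes, 19 of 27 further transport genes and 14 of 30 genes of vascular signalling, such as VEGF receptors and Notch ligands. It was called for 7 of 15 genes of the Wnt pathway that induces the barrier, 20 of 32 other endothelial genes, 10 of 17 genes of pericytes and smooth muscle and 7 of 10 basement membrane genes. Among other cell types the counts were 7 of 10 for astrocytes, 8 of 8 for microglia, 5 of 8 for neurons and 6 of 7 for oligodendrocytes. They were 2 of 8 for choroid plexus, 8 of 8 for meningeal fibroblasts, 8 of 8 for red blood cells and 0 of 10 for liver.

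The transcript table of 45918 RefSeq transcripts held 21 transcripts of the members. The strain effect was called for 10 of these, against 13.4% of all transcripts, and for 9 without the animals that went against their labels. For Abcg2 all 3 transcripts passed, and for Flt1 all 3 passed. The third Flt1 transcript, XM_008768998.3, was low, with a mean of 6.07, and its strain means ran from 4.53 in BXH5/Cub to 7.18 in LEXF6B/Stm with an R2 of 0.73. Its strain means did not follow those of the gene (Pearson r of -0.24 over 74 strains), whereas NM_019306.2 did (r of 0.93). Of 7 Pecam1 transcripts only NM_031591.2 passed, with an R2 of 0.52. The remaining 6 had R2 values between 0.33 and 0.38, and their SD between animals of 1 strain was 0.80 or more. Neither transcript of Cdh5 passed, although the gene did.

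Each HXB/BXH strain carries a fixed mixture of the SHR/OlaIpcv and BN-Lx/Cub genomes, and the family was tested on its own. Over the 30 strains alone, 6 of the 10 members passed, against 19.1% of all genes. They were Abcg2 (R2 of 0.91, adjusted p = 9.14e-20), Pecam1 (0.76, adjusted p = 2.61e-07), Vwf (0.58, adjusted p = 0.00208), Flt1 (0.55, adjusted p = 0.0107), Tek (0.56, adjusted p = 0.0114) and Abcb1a (0.55, adjusted p = 0.0133). Cldn5, Cdh5, Slco1a4 and Slc2a1 did not pass, with adjusted p of 0.172, 0.173, 0.187 and 0.505. Leaving out replicate 1, 2 or 3 brought the count to 2, 3 and 2, with Abcg2 and Pecam1 called each time and Vwf also called without replicate 2. Of all genes, 3992 passed in the family with every animal, and 1732, 1902 and 1710 in these fits.

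Abcg2 strain means in this family were best described by 2 clusters. Normal mixtures of 1 to 3 clusters with equal variance were fitted to the 30 strain means, and 2 clusters were chosen by the Bayesian information criterion, with a gain of 6.69 over a single cluster. The low cluster held 16 strains with 46 animals, whose strain means ran from 8.18 to 8.71 (mean 8.44 ± 0.152, SD over strains). The high cluster held 14 strains with 42 animals and strain means from 8.82 to 9.49 (9.12 ± 0.164). Since the clusters were made from these values, their difference is a description and was not tested. Animals of the low cluster reached 8.80 and animals of the high cluster went down to 8.67, so the animals overlapped. The widest gap between neighbouring strain means was not between the clusters but at the top of the high cluster, from 9.27 to 9.49. Under every alternative setting run, 2 clusters were chosen for Abcg2, and over all genes 10.3% were given 2 clusters. Cldn5 was also given 2 clusters, with a gain of 3.29, but only 1 under 7 of the alternatives, among them the fit without the animals that went against their labels. Each of the other 8 members was given 1 cluster, but 2 were chosen for Slco1a4 in the v5 version of the table and for Tek with either batch label as a covariate.

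**Figure D2:**
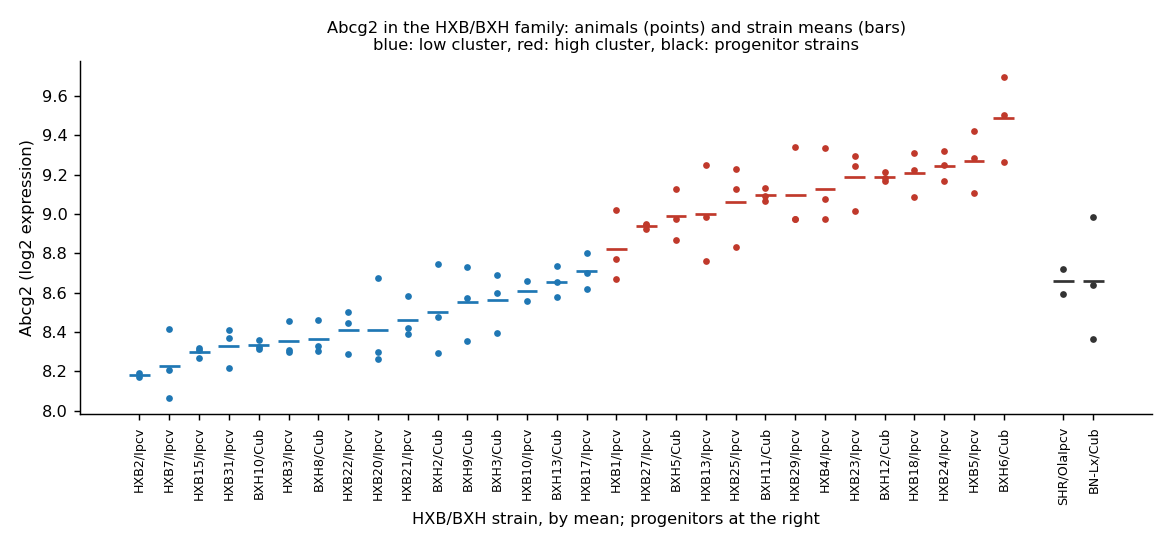
Abcg2 in each of the 30 HXB/BXH strains in order of the strain mean, with animals as points, strain means as bars, the low cluster in blue, the high cluster in red and the progenitor strains in black at the right (log2 expression). The strain means rise without a wide step from 8.18 to 9.49, and the means of both progenitors lie at 8.66.

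The Abcg2 transcripts showed the clusters to different degrees. NM_181381.2 had strain means of 7.25 to 7.85 in the low cluster and of 8.08 to 8.79 in the high cluster, with no overlap. Its strain means followed those of the gene with an r of 0.97. As the clusters were cut on gene values of the same libraries, this separation was largely set in advance. XM_006236573.4 ran from 1.74 to 4.97 in the low and from 4.28 to 5.88 in the high cluster. XM_006236576.3 ran from 3.39 to 6.63 and from 5.70 to 8.20. Both of the latter overlapped. The progenitors did not mark the ends of the distribution. SHR/OlaIpcv animals 1 and 4 had gene values of 8.72 and 8.60, and BN-Lx/Cub animals had 8.99, 8.64 and 8.36. The 12 libraries of SHR/OlaIpcv animal 1 themselves ran from 8.19 to 9.07 with a median of 8.80, which covers strain means of both clusters.

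The strains of the panel include models of hypertension, a condition in which brain vessels are exposed to high pressure. By general knowledge of the strains, and not by the labels, 6 classic inbred strains with 16 animals were set as hypertensive, namely SHR/OlaIpcv, SHRSP/A3NCrl, LH/MavRrrc, FHH/EurMcwi, MWF/Hsd and SS/JrHsd. They were compared with the other 19 classic inbred strains (50 animals). The test was made on strain means, since animals of 1 strain share a genotype. No blood pressure was measured in these data.

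None of the 10 members passed, and neither did any of the 20859 genes at 5% FDR (limma, 0% called), although 1619 genes had an unadjusted p under 0.05. No member was among the latter. The nearest to it was Cldn5, with strain means of 9.92, 9.98, 10.03, 10.22, 10.23 and 10.31 in the hypertensive strains and of 9.94 to 10.47 in the others. The difference was -0.13 (SE 0.066, unadjusted p = 0.0533, adjusted p = 0.639), and the ranges of the groups overlapped over most of their length. It was -0.06 without replicate 1 (unadjusted p = 0.408), -0.18 without replicate 2 (unadjusted p = 0.0369) and -0.17 with the library of the lowest batch number (unadjusted p = 0.0108). Its adjusted p was 0.349 or more under every alternative run. Abcg2 had the widest difference at -0.18 (SE 0.167, unadjusted p = 0.284). Of its 6 hypertensive strain means 5 lay between 8.40 and 8.66, and SHRSP/A3NCrl stood apart at 9.11. The other strains ran from 7.84 to 9.41. The Abcg2 difference was -0.29 without SHRSP/A3NCrl and -0.34 among strains of 3 or more animals. It was -0.05 with only SHR/OlaIpcv, SHRSP/A3NCrl and LH/MavRrrc as hypertensive. For the remaining members the difference was 0.08 for Cdh5, 0.06 for Flt1, 0.06 for Pecam1, 0.04 for Tek, -0.01 for Abcb1a, -0.02 for Vwf, -0.02 for Slco1a4 and -0.04 for Slc2a1. Their SEs ran from 0.046 for Pecam1 to 0.126 for Vwf.

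**Figure D3:**
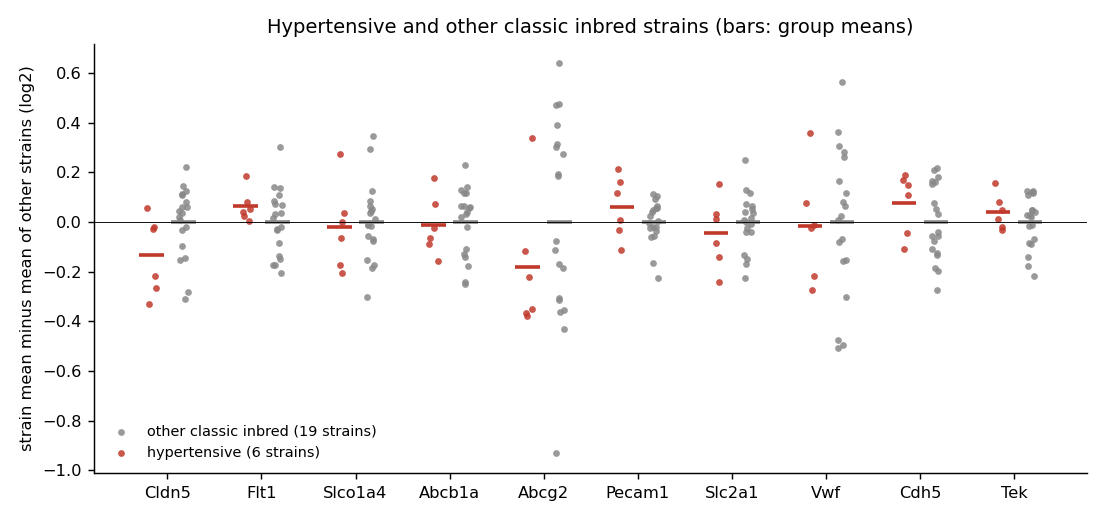
Strain means of the members minus the mean of the other classic inbred strains (log2 units), for 6 hypertensive strains in red and 19 others in grey, with bars at the group means. The groups overlap for every member, and SHRSP/A3NCrl is the single hypertensive strain above the bulk for Abcg2.

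Further vascular genes with the lowest p were taken from each list. None passed 5% FDR. Of all genes in the lists, a higher mean in hypertensive strains was found for 25 of 30 in vascular signalling (median difference 0.03), 9 of 15 in the Wnt pathway (0.02), 17 of 32 other endothelial genes, 6 of 12 junction genes, 12 of 27 transport genes, 7 of 17 genes of pericytes and smooth muscle and 4 of 10 basement membrane genes (-0.03), against 10342 of all 20859 genes. Nid1, a basement membrane linker, had means of 10.53 in hypertensive and 10.30 in other strains (difference 0.23, SE 0.080, unadjusted p = 0.00878), and Nid2 differed by 0.15. Des, the muscle intermediate filament, differed by -0.24 (SE 0.086, unadjusted p = 0.00900), and Abcc9, a pericyte channel subunit, by 0.13. Differences of the others were 0.21 for Esm1 and -0.15 for Egfl7 among endothelial genes, 0.07 for Cldn12 and 0.08 for Jam2 among junction genes, and 0.14 for Slc16a1 and -0.07 for Abcc5 among transporters. They were 0.13 for Vegfb and 0.11 for Foxq1 in vascular signalling, and -0.15 for Wnt7b in the Wnt pathway.

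Markers of some other cells also leaned in 1 direction within their list, without passing 5% FDR. In the hypertensive strains 0 of 8 microglial and 0 of 10 liver genes had a higher mean, against 7 of 8 red blood cell genes and 8 of 8 genes of meningeal fibroblasts. The median difference was -0.06, -0.49, 0.23 and 0.15 in these lists and -0.0007 over all genes. The comparison strains include LE/Stm, whose single animal was one of those with raised liver genes, at a mean of 17.7, so the liver difference cannot be told apart from that animal. Their part in the members' values was not tested. With the batch characteristic as a covariate no member was called. The SEs were then wide, from 0.070 for Tek and 0.097 for Abcb1a to 0.760 for Cdh5 (difference -0.49) and 1.32 for Vwf (difference -0.95). With the title batch as a covariate Cdh5 was 0.11 (SE 0.072).

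Strain pairs often set against each other were compared within the fit over all animals. In 6 contrasts of the 10 members, 1 of 60 differences passed 5% FDR. It was Abcb1a in LH/MavRrrc against BN/NHsdMcwi, a contrast in which 4.98% of all genes passed and 2.42% were higher. The LH/MavRrrc animals had 10.65, 10.45 and 10.61, and the BN/NHsdMcwi animals had 10.11, 10.16 and 10.17, with no overlap. The difference was 0.43 (SE 0.123, adjusted p = 0.0216, limma). The call was lost when replicate 1, 2 or 3 was left out (adjusted p from 0.103 to 0.155), with differences of 0.37 to 0.49.

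No member was called for SHR/OlaIpcv against WKY/NCrl (0.825% of genes called), SHRSP/A3NCrl against WKY/NCrl (0.805%), SHRSP/A3NCrl against SHR/OlaIpcv (0.125%), SS/JrHsd against SR/JrHsd (0.988%) or BN-Lx/Cub against SHR/OlaIpcv (4.51%). Abcg2 was 8.72 and 8.60 in SHR/OlaIpcv, 8.96 and 9.27 in SHRSP/A3NCrl, and 9.18, 8.93 and 9.12 in WKY/NCrl. The averaged values of the SHR/OlaIpcv animals were thus below both other strains without overlap. They were lower by 0.42 against WKY/NCrl (adjusted p = 0.262, limma) and by 0.46 against SHRSP/A3NCrl (adjusted p = 0.983), and neither difference passed. The single libraries of SHR/OlaIpcv animal 1 ran from 8.19 to 9.07, which reaches animals of both other strains. Pecam1 was 10.10 and 10.23 in SHR/OlaIpcv and 9.82, 10.00 and 9.98 in BN-Lx/Cub (difference -0.23, SE 0.085, adjusted p = 0.0970). That difference was 0.02 when the library of the lowest batch number stood for each animal. Cdh5 was 9.75, 9.46 and 9.16 in SS/JrHsd and 9.05, 8.98 and 9.23 in SR/JrHsd (difference 0.37, SE 0.135, adjusted p = 0.210), and the groups overlapped.

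Whether the members share a pattern over animals was asked after the strain means had been removed. The deviation of each animal from its strain mean was correlated between members over the 192 animals, in 45 pairs. The p-values given are unadjusted, from 100000 two-sided permutations within strains, and 1e-05 is the smallest they can give. The members did not move as 1 block. Over the 45 pairs the median Pearson r was 0.17, 9 pairs lay above 0.5, 3 lay below -0.5 and 20 were negative. Among the pairs of all genes, 4.98% lay above 0.5 and 4.18% below -0.5.

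Slc2a1 and Vwf had the highest correlation, with r of 0.76 and Spearman's rho of 0.74 (permutation p = 1e-05 for both). Abcb1a and Tek followed with r of 0.74 and rho of 0.74 (permutation p = 1e-05 for both), and Slco1a4 and Abcg2 with r of 0.71 and rho of 0.65 (permutation p = 1e-05 for both). Vwf and Cdh5 had an r of 0.66, Flt1 and Cdh5 of 0.60, and Slco1a4 and Abcb1a of 0.60. The lowest values were those of Vwf with Slco1a4 and Abcg2. Slco1a4 and Vwf had an r of -0.64 and rho of -0.61, and Abcg2 and Vwf an r of -0.64 and rho of -0.60 (permutation p = 1e-05 for all 4). Slco1a4 and Slc2a1 had an r of -0.57.

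Without the 2 animals farthest from the median, the 12 pairs past 0.5 in either direction kept their sign, with 0.76 for Slc2a1 and Vwf and 0.69 for Slco1a4 and Abcg2. The 12 pairs also had the same sign in the HXB/BXH, the FXLE/LEXF and the classic inbred animals taken separately, and without the animals that went against their labels. Slco1a4 and Vwf, for example, had r of -0.45, -0.81 and -0.80 in the 3 panels. The pairs were picked over all these animals, so the same sign in parts of them was largely set in advance. Across the settings run in which both genes were measured, including batch as a covariate, Slc2a1 and Vwf ranged from 0.56 to 0.80. Slco1a4 and Vwf ranged from -0.67 to -0.26. The weaker ends, 0.56 and -0.26, came from taking out the first principal axis of all genes, a step described below.

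**Figure D4:**
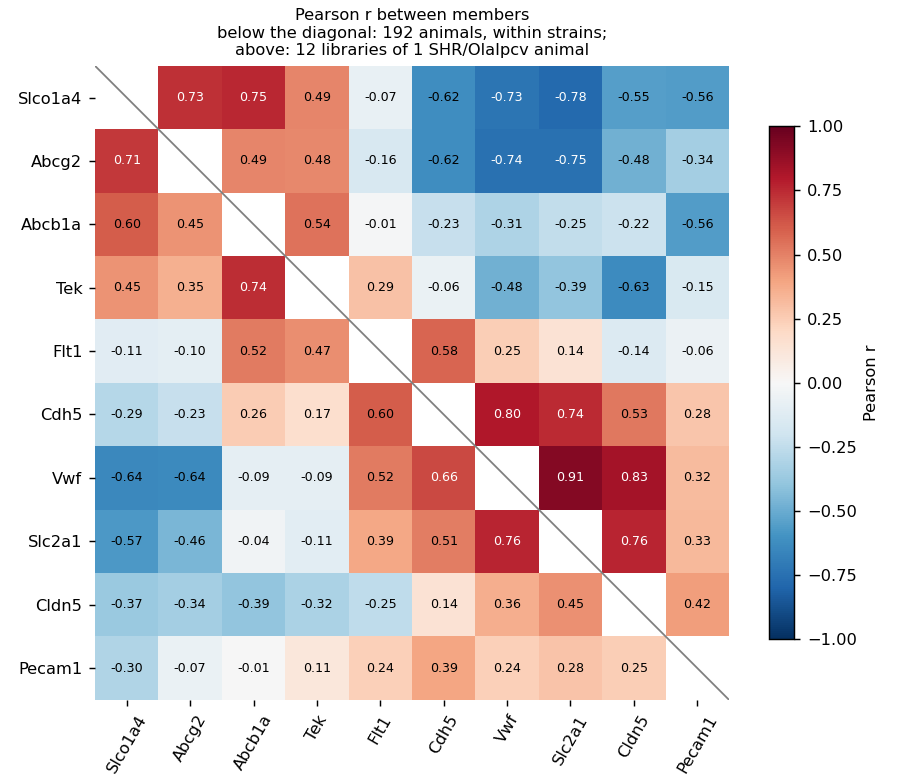
Pearson r between members, below the diagonal over the deviations of 192 animals from their strain means and above it over 12 libraries of SHR/OlaIpcv animal 1. Red is positive and blue negative, and Slco1a4 with Vwf is -0.64 below and -0.73 above the diagonal.

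Repeat libraries of the same animal showed much of the same pattern. In the 12 libraries of SHR/OlaIpcv animal 1, which carry different batch labels, the correlations of 40 of the 45 pairs had the same sign as between animals, and Slc2a1 and Vwf had an r of 0.91. In the 6 libraries of SHR/OlaIpcv animal 4 the sign was the same for 41 pairs. Flt1 and Abcb1a, with 0.52 between animals, had -0.01 and -0.10 in these sets. The part of this pattern in the correlations between animals was not tested.

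The first principal axis of the within-strain deviations of all genes held 23.1% of their variance. The members lay on both ends of it. Slco1a4 correlated with it at 0.75, Abcg2 at 0.64, Abcb1a at 0.50 and Tek at 0.41. Cldn5 stood at -0.77, Vwf at -0.69, Slc2a1 at -0.65, Cdh5 at -0.35 and Pecam1 at -0.27, and Flt1 lay near 0 at 0.07. When this axis was taken out, a step chosen after the data had been seen, the median r between members was 0.23, and 14 of 45 pairs were negative in place of 20. No pair then lay below -0.5, and 9 lay above 0.5. Flt1 and Vwf went from 0.52 to 0.78, Slco1a4 and Vwf from -0.64 to -0.26, and Cldn5 and Slco1a4 changed sign from -0.37 to 0.51.

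The genes nearest to the members' shared pattern were those with the highest r to the mean of the members' standardised deviations over the 192 animals. Among them were Myh11 (0.71), the smooth muscle myosin heavy chain, LOC684327 (0.68), Ahnak (0.66), Msn (0.65), Pdgfra (0.64), Adgrf5 (0.63), Podxl (0.61), Cpt1a (0.61) and Lama2 (0.61). The members themselves ranged from 0.72 for Flt1, 0.71 for Cdh5 and 0.67 for Abcb1a to 0.11 for Slco1a4. Cldn5 and Abcg2 also had low values, at 0.12 and 0.15. Each member is part of the mean, which raises its own value above those of genes outside the set. With the other members alone, the median r was -0.29 for Slco1a4, -0.25 for Cldn5 and -0.10 for Abcg2.

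Taken singly, the nearest gene in the table was another endothelial gene for 2 members. For Flt1 it was Ptprb (r of 0.81), the phosphatase of endothelial receptors, and for Tek it was Abcb1a (0.74). For the others it was Abhd8 for Cldn5 (0.89), Tax1bp1 for Slco1a4 (0.93), Tpr for Abcb1a (0.83), Gsta6 for Abcg2 (0.73), P4hb for Pecam1 (0.54), Rab11b for Slc2a1 (0.82), Tln1 for Vwf (0.89) and Fmod for Cdh5 (0.78). Before the nearest other member came at most 3469 genes for Cldn5, 1328 for Slco1a4, 323 for Vwf and 7 for Abcg2. These counts can include that member itself. For the 10 basement membrane genes the median r was 0.75 with Vwf, 0.65 with Slc2a1, 0.53 with Cldn5, -0.55 with Abcg2 and -0.59 with Slco1a4. The same list had a median r of -0.77 with the first axis. The other vascular lists ranged from -0.45 for transport to -0.12 for junction genes. Lists of other cell types ranged from -0.57 for microglia to 0.16 for oligodendrocytes. A list of Y-linked and X-inactivation genes stood at 0.71, with a median r of 0.73 with Slco1a4 and -0.58 with Vwf. The axis was therefore not particular to vascular genes.

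Over the 74 strain means the members' correlations were weaker, with a median of 0.08, 3 pairs above 0.5 and 1 below -0.5. Among the pairs of all genes there, 3.13% lay above 0.5 and 2.30% below -0.5. The 12 pairs past 0.5 between animals had the same sign there. Slco1a4 and Abcg2 had 0.71 between animals and 0.01 over strain means, and the difference of these values was not tested. Slc2a1 and Vwf had 0.53, and Flt1 and Vwf 0.55.

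Repeat libraries gave the spread of single libraries of 1 animal, whereas a strain mean averages the animals of a strain. Whether libraries of other animals spread as widely was not tested, so this spread sets no bound on the strain effects. The SD over the 12 libraries of SHR/OlaIpcv animal 1 exceeded the SD between animals of 1 strain in 7 of the 10 members, against 55.9% of all genes, and exceeded the SD of strain means in 7. The median ratio of repeat-library SD to SD of strain means was 1.32 over the members and 1.35 over all genes, so the members did not stand out. For Vwf the SD over these libraries was 0.452, against 0.297 between animals and 0.268 between strain means, and its libraries ran from 9.70 to 11.17. For Cldn5 this SD was 0.386, against 0.246 and 0.187, with libraries from 9.20 to 10.61. For Abcg2 it was an SD of 0.297, against 0.168 between animals, but the SD of strain means was wider at 0.344. Tek had the lowest SD, at 0.104, against 0.139 between animals and 0.113 between strain means. The 6 libraries of SHR/OlaIpcv animal 4 gave SDs of 0.358 for Vwf, 0.295 for Cldn5, 0.294 for Abcg2 and 0.125 for Tek.

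**Figure D5:**
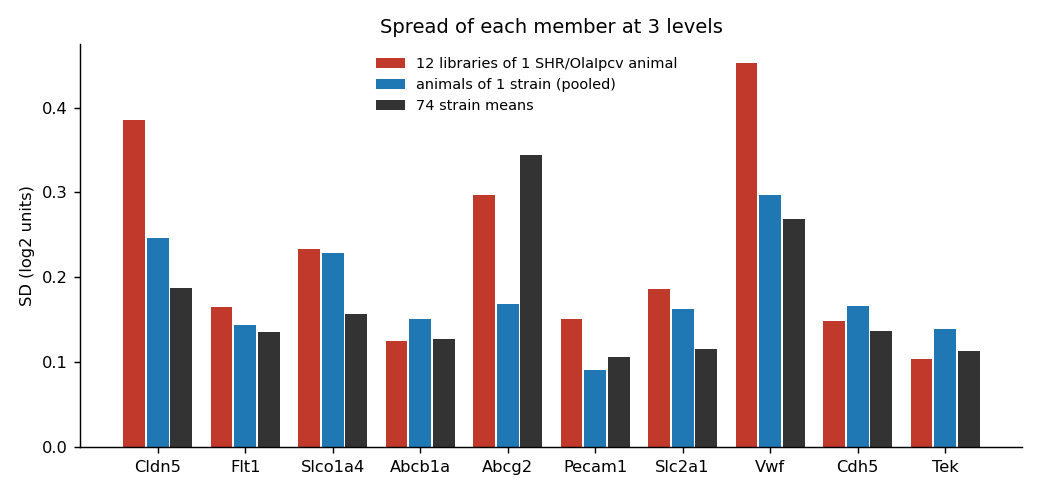
SD of each member in log2 units over 12 libraries of SHR/OlaIpcv animal 1 (red), between animals of 1 strain (blue, pooled over strains) and over 74 strain means (black). Vwf and Cldn5 have the tallest red bars at 0.452 and 0.386, and Abcg2 is the member with the tallest black bar at 0.344.

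The means of the batches were closer to each other than these single libraries. Each batch mean averages at least 5 libraries, which by itself narrows their spread, so the SDs are not on equal terms. Over the 16 batches with at least 5 libraries the SD of a member's batch means ran from 0.0138 for Tek to 0.0514 for Vwf, and the median gene had 0.0156. The values of a batch had therefore about the same mean for every member, while repeat libraries of 1 animal across batches spread by an SD of 0.0952 or more in each member. How the authors made the table is not given for this version, and whether an adjustment for batch bears on the repeat libraries was not tested.

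In other versions of the authors' processing, which use Ensembl genes and share libraries with the table above, 8 members each could be identified by symbol. The v5 version lacked Pecam1, the v6 version lacked Cldn5, and both lacked Slc2a1. Over 45 strains of the v5 version the strain means correlated with those above at 0.92 for Abcg2, 0.86 for Tek, Flt1 and Cdh5, 0.80 for Vwf, 0.68 for Slco1a4, 0.64 for Abcb1a and 0.53 for Cldn5. Over 58 strains of the v6 version the correlations were 0.95 to 0.99 for its 8 members, which include Pecam1 but not Cldn5. In the v5 version all 8 members passed the strain test, Cldn5 and Slco1a4 among them, and 11647 of 18309 genes did. Positions on the rn6 assembly were held by the v5 annotation for 8 members. Abcb1a (22130431 to 22517131), Abcg2 (88834066 to 88901617), Vwf (158088508 to 158219523) and Slco1a4 (175887920 to 176026163) lie on chromosome 4, Cldn5 on chromosome 11, Flt1 on chromosome 12, Cdh5 on chromosome 19 and Tek on chromosome 5.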

How the data were processed

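Total RNA from brain tissue of untreated rats was sequenced after depletion of ribosomal RNA. According to the study's methods, a single side of each sagittally divided brain was taken. The deposited tables hold log2 values scaled across libraries by the authors, with no counts. Main values came from the v7.1 RefSeq gene table (20859 genes after 73 spike-in features were left out) and its transcript table. The v5 and v6 Ensembl tables served as alternatives, with 8 members matched by symbol through the deposited annotations. For v5 the authors describe trimming, removal of ribosomal reads, alignment to strain-specific rn6 genomes, RSEM quantification, removal of 1 factor of unwanted variation and the regularized log of DESeq2. The steps and the build behind the v6 and v7.1 tables are not given in the sources used here. The submitters' processing notes list cutadapt 1.9.1, Bowtie2 2.3.4.3 and 2.4.5, HISAT2 2.1.0 and 2.2.1, StringTie 1.3.5 and 2.2.1, and RSEM 1.3.1 and 1.3.3. A few values were implausible on a log2 scale, 5 of the gene table and 21 of the transcript table being above 30.

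The labels gave strain, replicate and batch. The batch used is the characteristic of that name, and the number in the title differs from it in 23 of the 214 libraries. Libraries of 1 animal were averaged. The labels do not say how animals of a strain were housed or collected, so p-values measure the spread between these animals. The study's methods place the HXB/BXH strains and both their progenitors in Prague, with brain tissue shipped in liquid nitrogen. Its other classic inbred strains came from commercial suppliers, with brains kept in RNAlater. A strain difference across these sources, as for SHR/OlaIpcv against WKY/NCrl or SHRSP/A3NCrl, cannot be told apart from source and storage. Both sources also occur in the hypertensive comparison. R2 and the moderated F-test over strains, strain pair contrasts and the test of hypertensive against other strain means were fitted over all genes with limma 3.58.1 in R 4.3.3, with Benjamini-Hochberg adjustment over all genes and a threshold of 5% FDR. Mixtures were fitted with mclust 6.1.1. Correlations and permutations were computed with numpy 2.4.6 and scipy 1.17.1. Fits were tested on simulated data. Promoter windows came from RefSeq on GRCr8. Levels are not compared between genes, since a scaling by length is not stated.

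The members, the gene lists and the tests were chosen with earlier results of these data known. The hypertensive class came from general knowledge of the strains. By rule the text names all members, the strains of their lowest and highest mean, the 2 genes with the lowest p of each vascular list where fewer than 3 listed genes pass in the hypertensive comparison, the 10 genes nearest the members' mean and the gene nearest each member. Some genes that the rule names are not reported here. Other genes of the text are examples chosen after their values were seen. The check for animals against their labels used 2000 strain-specific genes, with substrains of a stock counted as 1 strain. Its form and margins (3 log2 units for liver genes, 1 for Y-linked genes) were set after several forms had been tried on the data. Alternatives were the v5 and v6 tables, batch as a covariate, 1 library per animal, centring on the library median, a filter on low means, each replicate left out, the replicate block, other definitions of the class and the first axis taken out.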

Additional observations from a re-analysis of the deposited data

Results flagged for a closer look

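Dixon's criterion for a value that stands apart was applied to 20 groups of 6 values, namely the 10 members over the hypertensive strain means and over the libraries of SHR/OlaIpcv animal 4. About 1 in 20 such groups passes by chance, and 3 passed. Abcg2 in SHRSP/A3NCrl had a strain mean of 9.1149, above the 8.40 to 8.66 of the other 5 hypertensive strains. Flt1 was 11.44 in the batch 18 library of SHR/OlaIpcv animal 4, below the 11.63 to 11.71 of its other libraries. Slco1a4 was 11.5502 in the batch 15 library of that animal, above 11.05 to 11.17 in the others. The SHRSP/A3NCrl mean rests on 2 animals, at 8.96 and 9.27, and both lay above the other 5 means.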

How the results depend on the processing

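The 7 members with a strain effect were between 7 and 8 under the other settings and between 3 and 8 when a replicate was left out. The genes with a strain effect, 7677 of 20859, were 11647 of 18309 in v5 and 3116 to 6122 without a replicate. Among genes above the median mean they were 3633 of 10429. In the HXB/BXH family the genes called, 3992 in all, were 6694 with the batch characteristic as a covariate. Among genes above the median mean they were 1532 of 10429. The count of members called in the family was 2 to 3 without a replicate, and that of the members' transcripts with a strain effect 2 to 5. Leaving out a replicate leaves fewer animals per strain. No member differed between hypertensive and other strains under any of the 23 alternatives. Of all genes, 3 were called with the library of the lowest batch number, 6 with only SHR/OlaIpcv, SHRSP/A3NCrl and LH/MavRrrc as hypertensive and 1 with strains of 3 or more animals. Strain pair differences of the members numbered 2 of 40 in v5, and 0 to 1 of 60 without a replicate. They numbered 4 of 60 with the batch characteristic and 2 of 60 with the title batch as a covariate. The share of all genes called in each contrast was computed for the main fit only, so these counts have no background beside them. The differences called in v5 were Vwf for SHR/OlaIpcv against WKY/NCrl (-0.75) and Abcg2 for BN-Lx/Cub against SHR/OlaIpcv (-0.47). Cdh5 for SS/JrHsd against SR/JrHsd was called without replicate 3 (0.59).

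The median r within strains was 0.239 in v5, 0.250 in v6, 0.211 with the batch characteristic, 0.213 with the title batch, 0.211 without the animals against their labels and 0.231 with the first axis taken out, and 0.166 to 0.221 without a replicate. Over strain means it was 0.141 in v5, 0.164 in v6 and 0.368 with the batch characteristic, and 0.077 to 0.121 without a replicate. The ratio of the members' repeat-library SD to the SD of strain means had a median of 1.32, and of 1.06 in v6. It was 1.25 without replicate 2 and 1.18 without replicate 3. Without replicate 1 it was 1.01, but there the 6 libraries of SHR/OlaIpcv animal 4 stood in place of those of animal 1.

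Uncalled differences between hypertensive and other strains changed sign as follows. With the batch characteristic, where SEs were wide (0.760 for Cdh5), they were -0.1625 for Flt1, 0.2071 for Slco1a4, 0.2522 for Abcg2, -0.111 for Pecam1 and -0.4879 for Cdh5, and with the title batch 0.049 for Vwf. In v5 they were -0.0055 for Flt1 and 0.0456 for Abcg2, and in v6 0.0219 for Slco1a4. With the library of the lowest batch number they were 0.0094 for Slco1a4 and 0.009 for Abcb1a. Without SHR/OlaIpcv they were 0.0149 for Slco1a4 and 0.0152 for Abcb1a, without SHRSP/A3NCrl 0.0016 for Abcb1a, without SS/JrHsd 0.0086 for Slco1a4, without FHH/EurMcwi 0.0364 and without MWF/Hsd 0.0258 for Vwf. With 1 mean per family they were 0.0047 for Slco1a4, 0.0184 for Abcb1a and 0.014 for Vwf. With only strains of 3 or more animals they were 0.0512 for Slco1a4 and 0.0449 for Abcb1a, against all other strains 0.0423 and weighted by animals 0.0049 for Slco1a4. For Vwf they were 0.0137 with only SHR/OlaIpcv, SHRSP/A3NCrl and LH/MavRrrc, and 0.029 without the animals against their labels. Without a replicate they ran from -0.0571 to 0.0385 for Slco1a4, from -0.0397 to 0.0079 for Abcb1a, from -0.0867 to 0.0008 for Slc2a1 and from -0.0529 to 0.0399 for Vwf. Pecam1 in BN-Lx/Cub against SHR/OlaIpcv was 0.019 with the library of the lowest batch number. The cause of these changes was not tested.

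With the replicate number as a block, 7 members and 7963 genes had a strain effect, the median r within strains was 0.174, and the counts were 6 members in the HXB/BXH family, 1 strain pair difference and 9 transcripts, so that no other count of members changed. The number does not pair the animals: over animals of different strains the mean correlation of deviations was 0.0137 for the same number and -0.0066 for different numbers, and 71 of 192 animals correlated best with their own number. Depth is unknown, and the number of animals limits the precision.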

Other observations

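Abcg2 in the HXB/BXH progenitors differed between processing versions, which hold partly different animals. In the v5 version SHR/OlaIpcv had 8.58, 9.14 and 9.04 and BN-Lx/Cub had 8.68, 8.46 and 8.21. In the v6 version SHR/OlaIpcv had 8.57, 9.08 and 8.66 and BN-Lx/Cub had 8.83, 8.46 and 8.15. The difference of BN-Lx/Cub from SHR/OlaIpcv passed 5% FDR in v5 (-0.47, limma), and the lowest SHR/OlaIpcv animal lay below the highest BN-Lx/Cub animal in both versions. The clusters of the HXB/BXH strains had strain means of 8.20 to 8.78 and of 8.79 to 9.17 in v5. In v6 these were 8.07 to 8.54 and 8.64 to 9.31. The 16 and 14 strains were grouped as above, by values from libraries that these versions share, so the separation was partly set in advance.

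Among the classic inbred strains the means of Abcg2 were described by 3 clusters, with means of 7.84 (the single BUF/MnaMcwi animal), 8.51 (14 strains) and 9.13 (10 strains), and over all 74 strains by 2, with means of 8.48 and 9.06.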
